A study of Mus musculus with 12 samples.

Results

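Interferon-stimulated genes are genes that cells switch on after an interferon signal. A list of 36 of them was followed here by gene name in primary mouse skin fibroblasts, and all 36 were found among the 21556 genes counted. RNA had been sequenced from 12 cultures in 4 groups of 3 libraries. WT control cells (strain C57BL/6, no stimulation) and WT cells given TGF-β2 at 10 ng/ml for 24 h formed the first pair of groups, and Nox4 KO control cells (strain B6.129-Nox4tm1Kkr/J, no stimulation) and Nox4 KO cells given the same TGF-β2 formed the other. The KO line lacks a functional Nox4 in every cell of the mouse, the cells came from abdominal skin, and all of them had been kept in serum-supplemented DMEM and starved for 24 h before the stimulation. The series' design text calls the 3 libraries of a group biological replicates and does not say which mouse or isolation each one came from, so the p-values below measure the spread between these cultures. Levels are given as RPKM, the reads of a gene scaled to the length of its exons and to the reads counted in the library.

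Type I interferons bind the receptor Ifnar1/Ifnar2, whose kinases Jak1 and Tyk2 pass the signal on to Stat2. Stat2 and Irf9 are parts of the complex ISGF3, which binds the interferon-stimulated response element (ISRE) in front of its target genes. Interferon-γ acts through another site, the gamma-activated sequence (GAS). The targets include sensors of viral RNA, enzymes that degrade or sequester viral RNA, the ubiquitin-like protein Isg15 and its machinery, and, as brakes, enzymes such as Usp18. Fibroblasts both make and answer type I interferon, and they keep a low tonic level of these genes without infection.

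The promoters of 28 of the 36 genes were listed by RefSeq on GRCm38.p6 as windows of 300 bases, 250 before and 50 after the start. The core of an ISRE, GAAA followed by any 2 bases and GAAA again, was searched on both strands. They stood in at least 1 window of 15 of these 28 genes, and in 1131 of all 32851 promoter windows, which is 3.44%. The 28 genes had 33 windows, of which 16 (48.5%) held the core. The GAS letters TTCNNNGAA, which read the same on both strands, stood in windows of 6 of the 28 genes and in 8.30% of all windows. The promoters below are those of Isg15, Ifit1 and Ifit3, whose levels differed widely between cultures, and of Gbp2 and Ifit2, the members that passed the test for a fall with TGF-β2 in both genotypes. They are written 5′ to 3′ on the strand of the gene, with ISRE cores in capitals.
Isg15, chr4:156200769-156201068, minus strand: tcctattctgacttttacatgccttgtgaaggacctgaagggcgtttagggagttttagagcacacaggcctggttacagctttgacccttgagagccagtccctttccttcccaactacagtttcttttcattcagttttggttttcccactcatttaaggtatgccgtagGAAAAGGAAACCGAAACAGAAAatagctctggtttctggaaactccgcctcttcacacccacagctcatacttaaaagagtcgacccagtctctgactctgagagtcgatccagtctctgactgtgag
Ifit1, chr19:34640639-34640938, plus strand: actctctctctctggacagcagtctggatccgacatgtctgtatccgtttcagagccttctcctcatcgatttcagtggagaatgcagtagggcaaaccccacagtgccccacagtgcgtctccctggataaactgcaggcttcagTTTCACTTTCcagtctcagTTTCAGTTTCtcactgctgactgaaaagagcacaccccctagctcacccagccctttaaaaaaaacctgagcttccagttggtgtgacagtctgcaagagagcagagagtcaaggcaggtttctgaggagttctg
Ifit3, chr19:34583279-34583578, plus strand: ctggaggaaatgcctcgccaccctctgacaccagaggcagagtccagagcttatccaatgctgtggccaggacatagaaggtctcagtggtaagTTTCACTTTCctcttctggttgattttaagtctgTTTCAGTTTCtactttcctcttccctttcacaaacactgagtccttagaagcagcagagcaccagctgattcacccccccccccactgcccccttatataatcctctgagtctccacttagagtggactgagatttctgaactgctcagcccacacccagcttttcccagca
Gbp2, chr3:142620413-142620712, plus strand: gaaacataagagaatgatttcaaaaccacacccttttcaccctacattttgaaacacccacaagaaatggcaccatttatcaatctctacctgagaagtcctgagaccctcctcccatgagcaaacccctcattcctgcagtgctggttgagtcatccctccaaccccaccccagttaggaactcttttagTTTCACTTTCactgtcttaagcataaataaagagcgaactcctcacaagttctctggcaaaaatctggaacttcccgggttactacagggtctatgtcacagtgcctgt
Ifit2, chr19:34550444-34550743, plus strand: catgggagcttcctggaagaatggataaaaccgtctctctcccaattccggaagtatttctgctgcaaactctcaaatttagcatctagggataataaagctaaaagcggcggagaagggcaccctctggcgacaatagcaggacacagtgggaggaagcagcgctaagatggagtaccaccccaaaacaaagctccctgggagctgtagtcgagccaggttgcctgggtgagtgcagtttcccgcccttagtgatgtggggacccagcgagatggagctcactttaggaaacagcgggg
In the Isg15 promoter 3 overlapping cores ran from base 78 to base 57 before the start. Ifit1 and Ifit3 held 2 cores each and Gbp2 held 1, which began 59 bases before the start. No such letters stood in this Ifit2 window, which held 1 GAS match. A match is only a run of letters, and no binding was measured here.

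Each library held between 35118344 and 43796260 counted reads. Nox4 counts were 203 to 398 in WT control, 1314 to 2471 in WT with TGF-β2, 102 to 207 in Nox4 KO control and 782 to 1175 in Nox4 KO with TGF-β2, so the KO libraries still held Nox4 reads. These counts cover the whole gene and therefore do not check the deleted part. The 10 fibroblast markers, such as Col1a1, Col3a1, Dcn and Pdgfra, were all kept by the filter on low levels (a mean of at least 1 RPKM in at least 1 group), with summed levels of 5472 to 8052 RPKM. No gene of the lymphocyte, keratinocyte, dendritic and Langerhans, or Schwann cell and melanocyte marker lists was kept. The endothelial list kept 1 of its 6 genes.

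The main division among the interferon-stimulated genes did not follow the groups. It set 2 WT libraries, control replicate 3 and TGF-β2 replicate 1, apart from the other 10. The summed level of the 36 genes was 138, 131 and 661 RPKM in the WT control replicates 1, 2 and 3, and 364, 84.5 and 88.2 RPKM in the WT replicates with TGF-β2. In Nox4 KO it was 174, 150 and 113 RPKM in control and 83.3, 125 and 94.3 RPKM after TGF-β2. WT control replicate 3 thus stood at several times the level of its group, and WT TGF-β2 replicate 1 stood above every control library but that one.

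**Figure D1:**
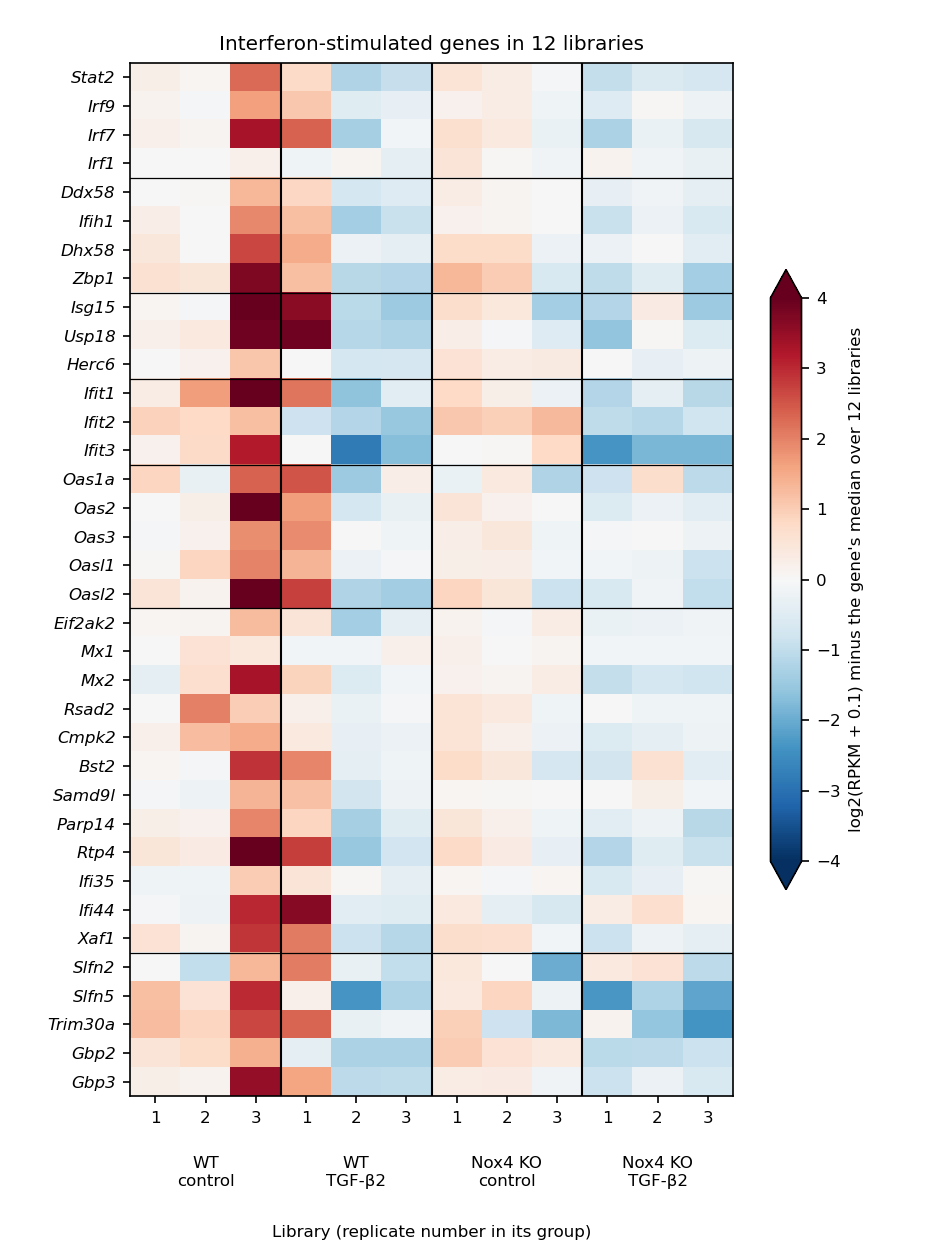
Colours give log2(RPKM + 0.1) of each interferon-stimulated gene (rows, grouped by role) in each of the 12 libraries (columns), less the median of that gene over the 12 libraries. WT control replicate 3 and WT TGF-β2 replicate 1 are the red columns, in which 34 of 36 genes were each the highest of their group.

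Within its group, WT control replicate 3 was the highest library for 34 of the 36 genes. Its level was a median of 4.29 times the mean of the other 2 WT control libraries (range over genes 0.670 to 30.8), and 30 genes were over 2-fold. Over all 10890 genes kept, the same library was highest for 53.7% and over 2-fold for 1.70%. WT TGF-β2 replicate 1 was likewise highest for 34 of the 36 genes, a median of 5.11 times the other 2 WT TGF-β2 libraries, with 30 genes over 2-fold. Over all genes kept it was highest for 11.8% and over 2-fold for 0.606%. The shift was therefore far more common in these 36 genes than over the table as a whole. Among 59 further interferon-stimulated genes not on the list, WT control replicate 3 was highest for 55 (median 2.71 times) and WT TGF-β2 replicate 1 for 50 (median 2.61 times). Below, results are given with and without these 2 libraries. Since they were picked for high levels of these genes, results without them are descriptions only.

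Markers of myeloid cells, which also make many of these transcripts, were present in every library. The summed level of 16 myeloid markers was 60.4, 33.5 and 167 RPKM in WT control replicates 1, 2 and 3. It was 48.4, 29.5 and 121 RPKM in the WT replicates with TGF-β2, 129, 45.1 and 26.6 RPKM in Nox4 KO control, and 96.3, 34.1 and 18.3 RPKM in Nox4 KO with TGF-β2. In both control groups the myeloid sum ranked the 3 libraries in the same order as the sum of the interferon-stimulated genes, and after TGF-β2 the orders differed in both genotypes. WT control replicate 3 was the highest of its group for 16 of 16 myeloid markers, while WT TGF-β2 replicate 1 was highest for 0 of 16. WT TGF-β2 replicate 3 (16 of 16), Nox4 KO control replicate 1 (16 of 16) and Nox4 KO TGF-β2 replicate 1 (15 of 16) were the other myeloid-high libraries. In those 3 libraries the summed level of the interferon-stimulated genes was 88.2, 174 and 83.3 RPKM. The part of myeloid cells in the levels below was not tested, and in bulk RNA fewer cells of a type and less RNA per cell cannot be told apart.

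**Figure D2:**
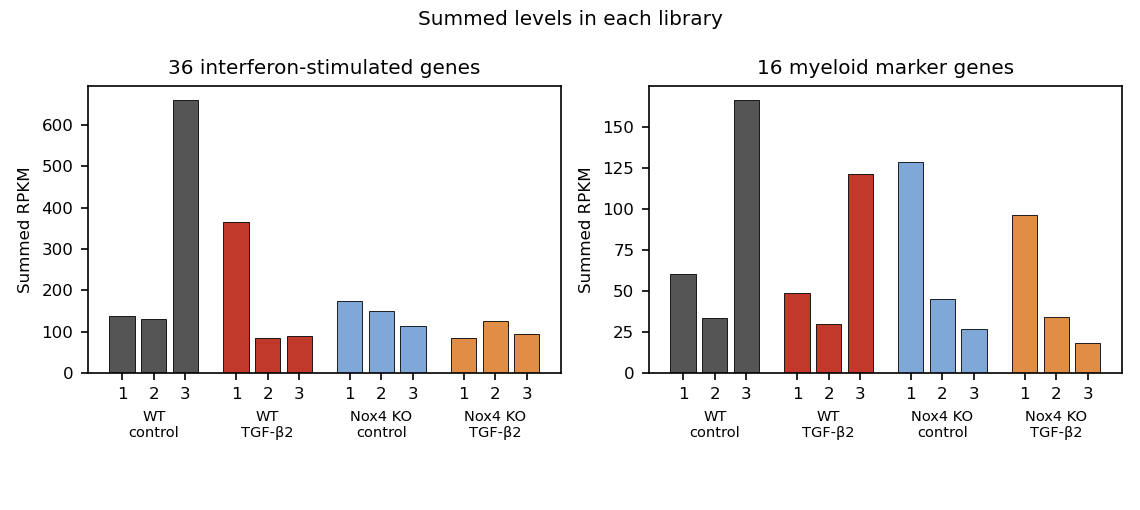
Bars give the summed RPKM of the 36 interferon-stimulated genes (left) and of 16 myeloid marker genes (right) in each library, labelled by replicate number. The interferon-stimulated genes peaked at 661 RPKM in WT control replicate 3 and 364 RPKM in WT TGF-β2 replicate 1, while the myeloid markers peaked in the WT replicates 3 and the Nox4 KO replicates 1.

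Interferon transcripts themselves were scarcely seen. Of 21 interferon genes counted, 13 had 0 counts in all 12 libraries, which allows up to 3 counts in each, and 20 never exceeded 3 counts. Ifnb1 had 1 count in WT TGF-β2 replicate 1 and 0 in the other libraries. Only Ifnz rose above that, with 10 counts in WT control replicate 3, 10 in WT TGF-β2 replicate 1 and 1 to 6 in the others. At this depth no interferon gene could be compared between libraries.

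The factors of the ISGF3 pathway took part to different degrees. Stat2 stood at 9.52, 8.58 and 39.3 RPKM in WT control and at 13.8, 3.47 and 4.21 RPKM in WT with TGF-β2. Its Nox4 KO levels were 11.9, 9.97 and 7.65 RPKM in control and 4.13, 5.44 and 5.01 RPKM after TGF-β2. Irf9, the DNA-binding subunit, was 3.07 times the other WT controls in replicate 3 and 2.83 times the other WT TGF-β2 libraries in replicate 1. Irf7, the amplifier of type I interferon induction, varied more, at 1.97, 1.83 and 17.6 RPKM in WT control and 9.11, 0.625 and 1.58 RPKM in WT with TGF-β2. Irf1, a factor that also answers interferon-γ, was the exception among the 4. Its levels were 5.17, 5.26 and 6.00 RPKM in WT control and 4.59, 5.60 and 3.95 RPKM after TGF-β2, with overlapping groups and no high library.

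Isg15 and Usp18 had the largest spread of all members. Isg15 (chromosome 4, 156199424 to 156200818, minus strand of GRCm38) stood at 5.88, 5.24 and 100.2 RPKM in WT control and at 68.5, 2.60 and 1.96 RPKM after TGF-β2 in WT. The Nox4 KO levels were 9.02, 7.45 and 2.11 RPKM in control and 2.41, 6.92 and 1.98 RPKM after TGF-β2. The 2 WT libraries were thus the only ones above 10 RPKM. Usp18, which removes Isg15 from proteins and brakes the interferon receptor (chromosome 6, 121245906 to 121270917, plus strand), read 0.859, 0.992 and 12.2 RPKM in WT control and 12.2, 0.279 and 0.257 RPKM in WT with TGF-β2. Its other libraries were all below 1 RPKM, and WT TGF-β2 replicate 1 was as high as WT control replicate 3 (ratio 1.00). Herc6, the main Isg15 ligase of the mouse, differed less, at 1.30, 1.47 and 2.90 RPKM in WT control and 1.29, 0.762 and 0.767 RPKM in WT with TGF-β2.

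The Ifit genes, whose proteins bind viral RNA, lie beside each other on chromosome 19 and split into a variable and a steady part. Ifit1 (34640871 to 34650009, plus strand) stood at 0.686, 1.95 and 16.7 RPKM in WT control and at 2.72, 0.110 and 0.364 RPKM in WT with TGF-β2. Ifit3 (34583531 to 34588731, plus strand) read 1.55, 2.41 and 13.2 RPKM in WT control and 1.38, 0.106 and 0.354 RPKM in WT with TGF-β2. Ifit2 (34550694 to 34576419, plus strand) stayed narrow, at 2.71, 2.47 and 3.29 RPKM in WT control and 0.731, 0.567 and 0.424 RPKM after TGF-β2. WT control replicate 3 was only 1.27 times the other controls for Ifit2, against 12.7 times for Ifit1 and 6.68 times for Ifit3. The promoters printed above include those of these 3 neighbours, with ISRE cores in the windows of Ifit1 and Ifit3 and none in that of Ifit2. Gbp2, whose printed window also held a core, was 1.74 times the other WT controls in replicate 3. Over the 28 genes with a promoter, the median excess of WT control replicate 3 was 4.34-fold for the 15 with a core and 3.07-fold for the 13 without, and both sets held genes under and over 10-fold.

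**Figure D3:**
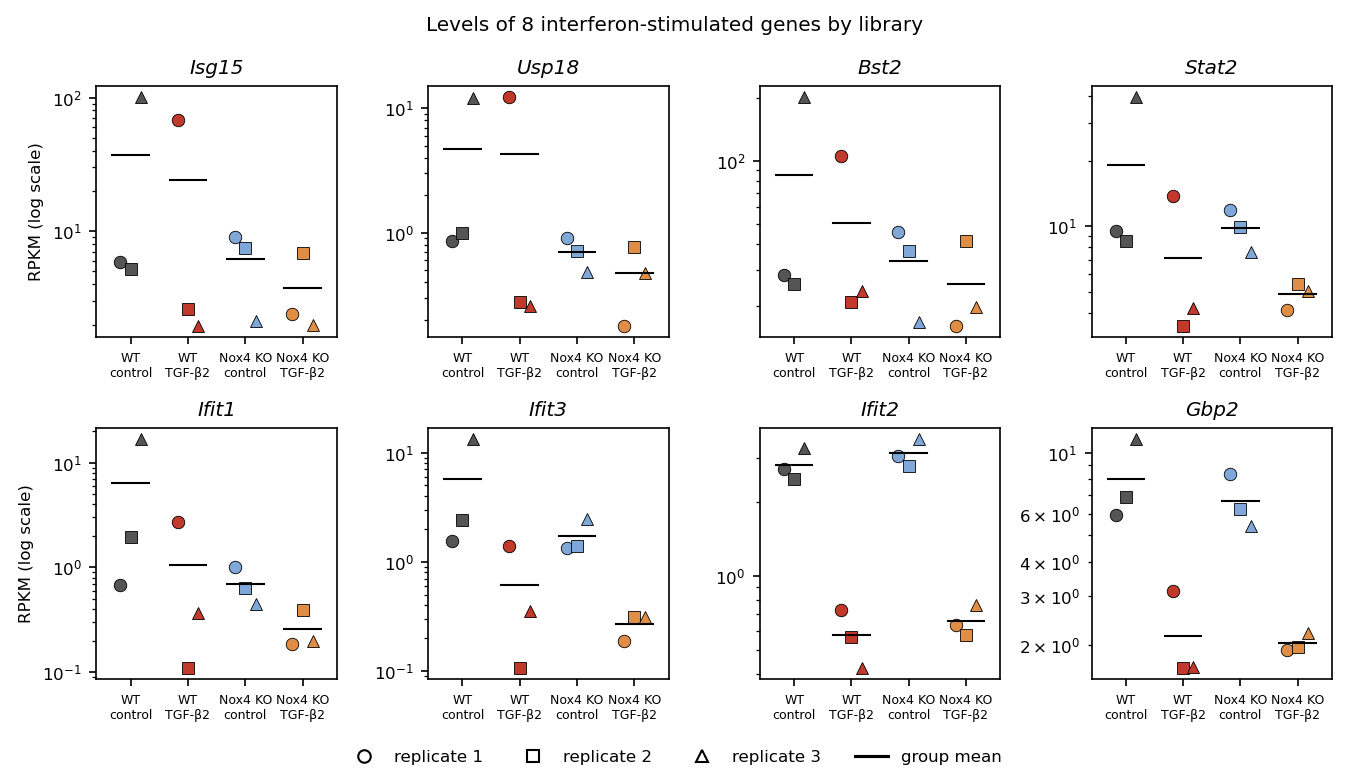
Points give the RPKM (log scale) of 8 interferon-stimulated genes in each library, with the shape marking the replicate number and the line the group mean. WT control replicate 3 and WT TGF-β2 replicate 1 lie apart from their groups for Isg15, Usp18, Bst2, Stat2, Ifit1 and Ifit3, while Ifit2 and Gbp2 separate control from TGF-β2 in both genotypes.

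The 2′-5′ oligoadenylate synthetases, which activate RNase L on double-stranded RNA, were low. Oasl2, an Oas-like gene, reached 16.7 RPKM in WT control replicate 3 and 6.04 RPKM in WT TGF-β2 replicate 1, against 0.903 and 1.20 RPKM in the other WT controls and 0.250 and 0.296 RPKM in the other WT TGF-β2 libraries. Oas1a, Oas2, Oas3 and Oasl1 did not pass 3 RPKM in any library. Oas2 had 438 counts in WT control replicate 3 and at most 23 counts in the libraries other than that one and WT TGF-β2 replicate 1, which had 74. Of the sensors of viral nucleic acid, Ddx58 (RIG-I) was the best expressed, at 12.1, 12.5 and 30.1 RPKM in WT control and 21.1, 7.30 and 8.41 RPKM in WT with TGF-β2. Ifih1 (MDA5) was 3.59 times, Dhx58 (LGP2) 5.68 times and Zbp1 10.7 times the other WT controls in replicate 3.

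Bst2, the tetherin that holds budding virus at the cell surface, had the highest mean RPKM of the members in each group, while Ifi35 exceeded it in 3 single libraries (WT TGF-β2 replicate 2 and the Nox4 KO replicates 3). It stood at 28.4, 25.7 and 201.8 RPKM in WT control, 105.7, 21.0 and 23.7 RPKM in WT with TGF-β2, 45.4, 37.1 and 16.9 RPKM in Nox4 KO control, and 16.1, 41.0 and 19.97 RPKM in Nox4 KO with TGF-β2. Rtp4 (14.2 and 22.6 times the other libraries of their groups in WT control replicate 3 and WT TGF-β2 replicate 1), Xaf1 (5.83 and 9.43 times) and Gbp3, a guanylate-binding GTPase (11.7 and 8.68 times), followed the same pattern. Eif2ak2, the kinase PKR, was moderate (2.27 and 2.499 times), as was Ifi35 (2.27 and 1.59 times). Slfn2 and Ifi44 were the only members over 1.5 times higher in WT TGF-β2 replicate 1 than in WT control replicate 3, at ratios of 1.66 and 1.58. The antiviral genes Mx1, Rsad2 (viperin) and Cmpk2 stayed under 0.4 RPKM in every library. For Mx1 and Rsad2 the highest WT control was replicate 2, at 8 and 56 counts. The annotation classes Mx2 as a polymorphic pseudogene, and its counts ran from 0 to 25 except for 175 in WT control replicate 3.

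The spread between cultures was measured as the SD of log2 CPM within groups, pooled over the 4 groups, for the 28 members that passed the filter over 12 libraries. Its median was 0.975, against 0.17 over all 10890 genes kept, and 24 of the 28 lay above the 90th percentile of all genes (0.389). Some of the 28, such as Usp18, Rtp4, Gbp3 and Zbp1, passed the filter only through WT groups with a high library. That way of being kept favours a wide spread. The largest values belonged to Isg15 (1.87), Usp18 (1.70), Oasl2 (1.64), Ifit1 (1.42) and Rtp4 (1.41). Ifit2 (0.225) and Irf1 (0.243) had the smallest. Within WT the median was 1.25, and within Nox4 KO it was 0.376, against 0.128 for all genes in Nox4 KO. Without the 2 WT libraries it dropped to 0.351, and 12 of 28 members remained above the 90th percentile of all genes. In Nox4 KO the widest members were Trim30a (1.25), Slfn2 (0.942) and Isg15 (0.903). Nox4 KO control replicate 3 was the lowest of its group for 29 of the 36 genes, beside 3543 of all 10890 genes kept.

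In WT cells, TGF-β2 lowered a small number of these genes past the test, which ran over the 10743 genes that passed the filter in these 6 libraries. Of the 28 members tested, 2 fell (adjusted p under 0.05, edgeR's quasi-likelihood test) and 0 rose, and 0 rose at an unadjusted p under 0.05 or with DESeq2. Of all genes tested, 12.2% fell and 10.4% rose, so the share of members that fell was near that of the table. Ifit2 fell by 2.25 on the log2 scale (SE 0.238, adjusted p = 0.00173), from 2.82 ± 0.422 to 0.574 ± 0.154 RPKM (SD, n = 3). Gbp2, a guanylate-binding GTPase induced by interferon-γ (chromosome 3, 142620602 to 142638008, plus strand), stood at 5.93, 6.92 and 11.2 RPKM in control and 3.13, 1.64 and 1.66 RPKM after TGF-β2, with no overlap. It fell by 1.85 (SE 0.346, adjusted p = 0.0117). The libraries of the groups did not overlap for 5 of the 28 members tested, all lower with TGF-β2 (Ifit2, Ifit3, Slfn5, Gbp2 and Herc6). Over all genes tested, 24.9% were lower without overlap.

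The other WT differences ranged widely in size, and many had a wide error. The median log2 fold change of the 28 members was −0.859, against −0.003 over all genes, and 27 of 28 were below 0. Ifit3 had a log2 fold change of −3.13 (SE 1.10, adjusted p = 0.0855) and Slfn5 one of −2.74 (SE 0.880, adjusted p = 0.0663). For Isg15 it was −0.503 with an SE of 1.59, and for Usp18 −0.037 with an SE of 1.602, so that neither a rise nor a fall of 2-fold could be told from no difference in WT. Without WT control replicate 3 and WT TGF-β2 replicate 1, 4 of 23 members tested fell, 0 rose, and the median was −1.18. Over all genes 2.39% fell in that comparison of 2 against 2 libraries. Beside Ifit2 and Gbp2 these were Stat2 (−1.22, SE 0.184, adjusted p = 0.0413) and Oasl2 (−1.93, SE 0.299, adjusted p = 0.0436). The 2 libraries had been picked as high in these same members, so leaving them out narrows the members' spread in advance. The 4 of 23 therefore cannot be weighed against the 2.39%.

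In Nox4 KO cells the libraries lay closer together, with summed levels that differed less than 2-fold within a group. Here 6 of the 21 members tested fell with TGF-β2 and 0 rose (edgeR's quasi-likelihood test), and 0 rose at an unadjusted p under 0.05 or with DESeq2. Over all 10809 genes tested, 14.9% fell and 15.1% rose. With library size as the only scaling, lower genes made up 67.3% of all calls instead of 49.5%, and 61.8% with upper-quartile scaling, while 8 members fell under either. Library size alone also moved the median of all genes to −0.102. With all 12 libraries in 1 fit only 2 members fell, beside 12.6% of all genes. Ifit2 stood at 3.06, 2.78 and 3.57 RPKM in control and 0.635, 0.576 and 0.761 RPKM with the stimulus. Ifit2 thus had a log2 fold change of −2.17 (SE 0.154, adjusted p = 0.00154). Ifit3 stood at 1.35, 1.401 and 2.44 RPKM and then at 0.187, 0.314 and 0.313 RPKM, and fell by 2.57 (SE 0.341, adjusted p = 0.00544). Both Ifit genes thus separated control from TGF-β2 without overlap.

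Slfn5, a Schlafen family member (chromosome 11, 82951349 to 82964840, plus strand), dropped from 2.91, 4.06 and 1.88 RPKM in Nox4 KO control to 0.355, 0.877 and 0.424 RPKM, and fell by 2.33 (SE 0.448, adjusted p = 0.0143). Gbp2 stood at 8.35, 6.26 and 5.42 RPKM and then at 1.91, 1.95 and 2.21 RPKM, and fell by 1.64 (SE 0.187, adjusted p = 0.00414). These 4 genes fell at least 2-fold. Stat2 fell by 0.936 (SE 0.192, adjusted p = 0.0170) and Herc6 by 0.550 (SE 0.147, adjusted p = 0.0363). Leaving out 1 library ended the call of Stat2 in 3 of 6 cases (control replicate 2 and TGF-β2 replicates 1 and 2, adjusted p up to 0.0552). For Herc6 it did so in 5 of 6 cases, all but TGF-β2 replicate 1 (adjusted p up to 0.128). The libraries did not overlap, with TGF-β2 lower, for 11 of the 21 members tested in Nox4 KO, against 31.5% of all genes tested. Over all 36 members, low genes included, there were 17, for which no matching share over all genes was computed. Some of the low genes rest on few counts, such as Mx1 (3, 1 and 2 in control, 0 in each library with TGF-β2).

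The Nox4 KO libraries that share a replicate number deviated together, with correlations of 0.763, 0.688 and 0.741 over genes. With the replicate number as a block, 12 of the 21 members fell and 0 rose, while 28.8% of all genes fell and 25.2% rose. Of 11 myeloid markers tested, 4 fell and 0 rose with the block, and 0 passed either way without it. The 6 added members were Xaf1 (−0.891, adjusted p = 0.0365), Dhx58 (−0.621, 0.0369), Parp14 (−0.764, 0.0104), Eif2ak2 (−0.259, 0.0246), Ifih1 (−0.657, 0.0234) and Ddx58 (−0.329, 0.0221). All but Xaf1 and Parp14 are sensors of double-stranded or otherwise viral RNA. Xaf1 binds inhibitors of apoptosis and Parp14 is an ADP-ribosyltransferase. Isg15 and Bst2 did not pass in either fit, at log2 fold changes of −0.637 (SE 0.685) and −0.285 (SE 0.483) without the block. Of the 21 members tested, only Slfn2 and Samd9l had a positive value.

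**Figure D4:**
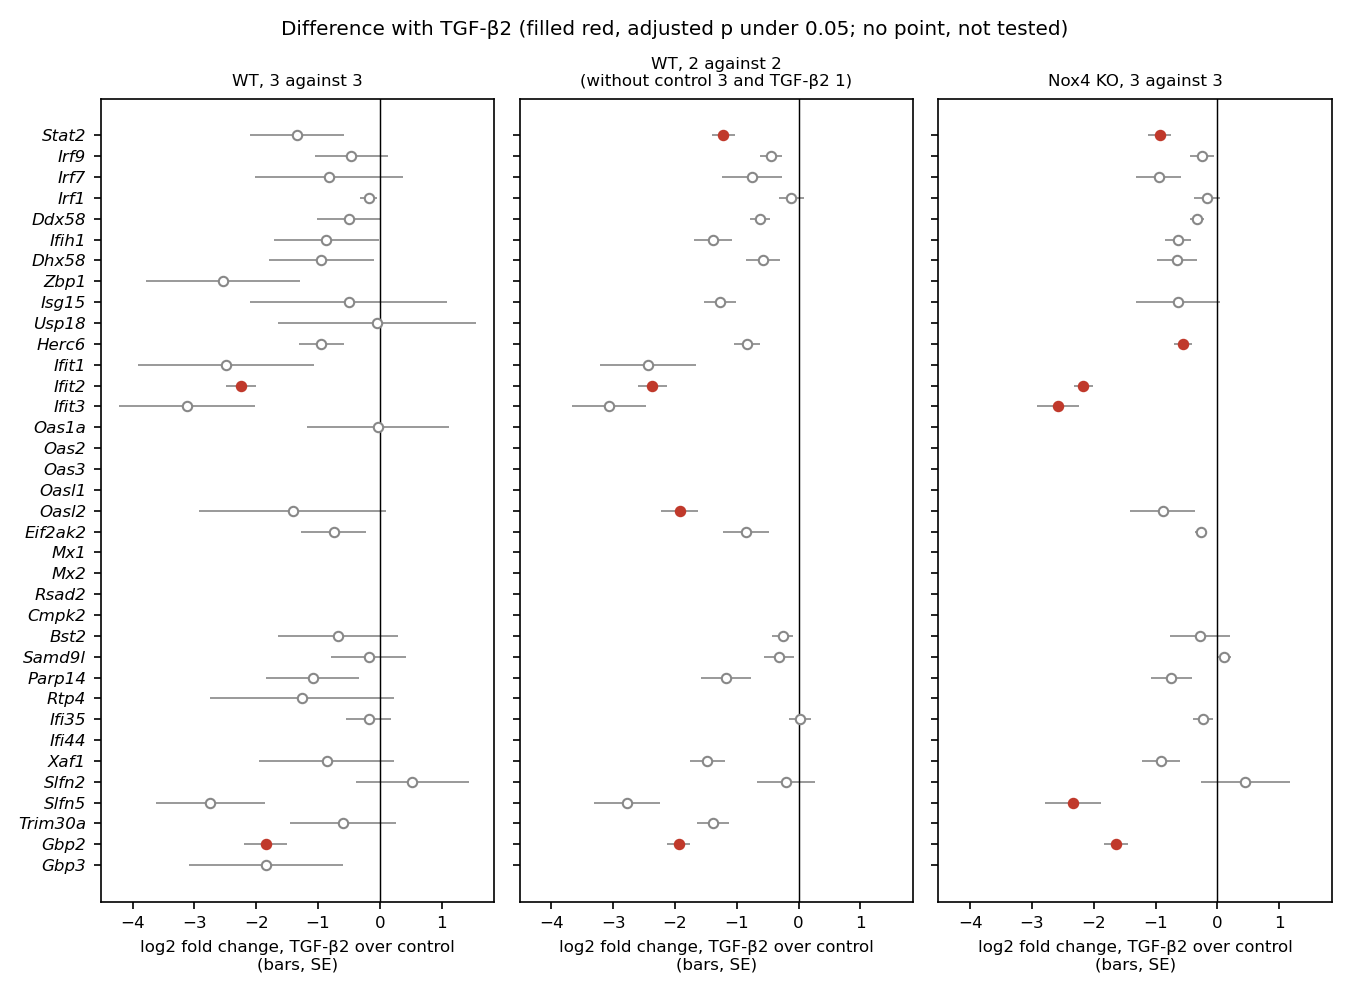
Points give the log2 fold change of TGF-β2 over control for each member tested and bars its SE, in WT (left), in WT without control replicate 3 and TGF-β2 replicate 1 (middle) and in Nox4 KO (right). Filled red points passed an adjusted p under 0.05. Ifit2 and Gbp2 passed in all 3 panels, and the bars of most other genes are widest in the left panel.

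The libraries allow the ratio of TGF-β2 to control to be set side by side in 3 sets that share no library, which are the 2 high WT libraries, the other 4 WT libraries and the 6 Nox4 KO libraries. For Ifit3 the ratio of RPKM was 0.104, 0.116 and 0.157 in the 3 sets, for Slfn5 0.1402, 0.143 and 0.187, for Ifit2 0.222, 0.192 and 0.209, and for Gbp2 0.280, 0.257 and 0.303. For these 4 genes the ratios of the 3 sets thus lay close together. Irf9 (0.670, 0.725 and 0.794), Samd9l (0.879, 0.787 and 1.01) and Bst2 (0.524, 0.827 and 0.776) were above 0.5 in every set. Usp18 had ratios of 1.00, 0.290 and 0.677, of which the last 2 rest on levels under 1 RPKM. Over the 28 members kept, the median ratio was 0.521, 0.417 and 0.581, and 25, 27 and 25 of them were below 1. Spearman's rho between the ratios across the 28 members was 0.705 for the high against the ordinary WT libraries, 0.863 for the high WT libraries against Nox4 KO, and 0.848 for the ordinary WT libraries against Nox4 KO. These are descriptions across genes, which are not independent replicates, and the first set is 1 library against 1. Some of the 28 were kept only through the WT groups with a high library.

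No member passed the test for a difference between Nox4 KO and WT. In control 0 of 28 members and 0% of the 10767 genes tested passed, after TGF-β2 0 of 23 and 0% of 10439, and for the interaction of genotype and TGF-β2 0 of 28 and 0% of 10890 (edgeR's quasi-likelihood test). At an unadjusted p under 0.05 there were 3, 0 and 0 members, beside 597, 337 and 292 of all genes tested. DESeq2 passed 0 members in each comparison. It had 5, 3 and 0 members at an unadjusted p under 0.05, a threshold not counted over all genes. Its calls over all genes were 9 higher and 19 lower in control, 8 and 8 after TGF-β2, and 0 and 6 for the interaction. In control the members nearest the threshold were Ifit1 (log2 fold change −3.20, SE 1.17), Usp18 (−2.74, SE 1.09), Slfn5 (−1.59, SE 0.650), Trim30a (−2.10, SE 0.893) and Rtp4 (−2.54, SE 1.13), all at an adjusted p of 0.828. After TGF-β2 they were Trim30a (−2.33, SE 1.12), Usp18 (−3.18, SE 1.55), Rtp4 (−2.64, SE 1.29), Irf7 (−1.88, SE 0.946) and Isg15 (−2.71, SE 1.41), all at an adjusted p of 0.838.

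With all libraries, the median log2 fold change of Nox4 KO over WT was −1.19 in control and −0.807 after TGF-β2 (28 and 23 members). It was 0.052 and 0.375 (23 and 15 members) without WT control replicate 3 and WT TGF-β2 replicate 1. For Isg15 after TGF-β2 the value went from −2.71 to 0.779 (SE 0.603, adjusted p = 0.862). For Ifit1 in control it went from −3.20 to −0.967 (SE 0.538, adjusted p = 0.939). The 2 libraries were picked as high in these members, so leaving them out had to raise the medians. Usp18 and Rtp4, for example, passed the filter only through the WT groups with a high library and were untested without it. The medians thus cover different genes, and the cause of the lower ones was not tested. In the interaction, the members nearest the threshold were Herc6 (0.413, SE 0.427, adjusted p = 0.855), Eif2ak2 (0.489, SE 0.604, adjusted p = 0.867), Gbp3 (1.05, SE 1.46, adjusted p = 0.879), Ifit1 (1.16, SE 1.71, adjusted p = 0.888) and Gbp2 (0.219, SE 0.423, adjusted p = 0.919). For Ifit1 the error is wider than the value, so a difference of 2-fold between the genotypes was not detectable for it.

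Other genes of the pathway were read from lists of receptors and transducers, sensors and adaptors, brakes, antigen presentation and further interferon-stimulated genes. Of 12 receptor and transducer genes tested, TGF-β2 lowered 3 in WT and 5 in Nox4 KO, and 0 rose. The shares over all genes, against which this and the next counts stand, were 12.2% lower in WT and 14.9% lower in Nox4 KO. Jak1, a kinase of both interferon receptors, stood at 57.6, 59.5 and 65.1 RPKM in WT control and 38.3, 32.2 and 39.5 RPKM with TGF-β2. Its log2 fold change was −0.686 (adjusted p = 0.00741) in WT and −0.375 (adjusted p = 0.0101) in Nox4 KO. Stat3 fell in WT (−0.522, adjusted p = 0.0110) and in Nox4 KO (−0.355, adjusted p = 0.0309). Jak2 fell in WT (−0.459, adjusted p = 0.0381), while Ifnar2 (−0.359, adjusted p = 0.0137) and Tyk2 (−0.303, adjusted p = 0.0344) fell in Nox4 KO, where the fifth was Stat2. Ifnar1, the other receptor chain, had levels of 19.1 to 21.3 RPKM in all 12 libraries.

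Of 17 sensors and adaptors tested in WT, 1 fell, Tlr3, the endosomal receptor for double-stranded RNA (−1.36, adjusted p = 0.0334). Of 16 tested in Nox4 KO, Trim25, the ligase that activates RIG-I (−0.545, adjusted p = 0.0116), and Ikbke (−0.521, adjusted p = 0.0136) fell and Traf3 rose (0.511, adjusted p = 0.0180). Of 12 brakes on the pathway, 4 fell in WT and 6 in Nox4 KO, while 1 rose in Nox4 KO. Samhd1, which depletes nucleotides (−1.24 in WT, adjusted p = 0.00100, and −1.04 in Nox4 KO, adjusted p = 0.0191), Socs3 (−1.17, adjusted p = 0.00228, and −1.18, adjusted p = 0.0153), Irf2 (−0.446, adjusted p = 0.0298, and −0.339, adjusted p = 0.0447) and Pias1 (−0.383, adjusted p = 0.0317, and −0.237, adjusted p = 0.0433) fell in both genotypes. Rnaseh2c fell (−0.454, adjusted p = 0.0197) and Ptpn11 rose (0.287, adjusted p = 0.0244) in Nox4 KO only past the test, and the difference between genotypes passed for 0 genes.

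Of 11 antigen presentation genes, 0 passed in WT with edgeR. There 3 had an unadjusted p under 0.05, as did 4053 of all 10743 genes tested. In Nox4 KO 4 of the 11 fell. The 4 were the proteasome activators Psme2 (−0.570, adjusted p = 0.00918) and Psme1 (−0.701, adjusted p = 0.00959), the peptide transporter Tap1 (−1.14, adjusted p = 0.00933) and H2-D1 (−0.351, adjusted p = 0.0251). Of the further interferon-stimulated genes, 1 of 42 fell in WT and 0 rose, while 10 of 35 fell and 2 rose in Nox4 KO. Ifitm3, a membrane protein that blocks virus entry, stood at 520, 461 and 470 RPKM in Nox4 KO control and 197, 235 and 244 RPKM with TGF-β2. Its log2 fold change was −1.02 (SE 0.102, adjusted p = 0.00312). Ifitm2 had one of −0.913 (SE 0.092, adjusted p = 0.00316). Tor3a (−0.356, adjusted p = 0.0120) and Ube2l6, the conjugating enzyme of Isg15 (−1.02, adjusted p = 0.0149), also fell. Apol9b rose in Nox4 KO (1.93, SE 0.455, adjusted p = 0.0251). With the replicate block, the genes that fell in Nox4 KO were 8 of 12 receptors and transducers, 7 of 16 sensors and adaptors, 6 of 12 brakes, 9 of 11 antigen presentation genes and 19 of 35 further interferon-stimulated genes, beside 28.8% of all genes. Without the 2 high WT libraries, 2, 0, 1, 0 and 3 genes of these lists fell in WT, beside 2.39% of all genes. The lists share Stat2, Irf9, Ifih1, Ddx58, Dhx58, Zbp1, Irf7, Eif2ak2 and Usp18 with the 36 genes.

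Trim30a, a Trim family gene induced by interferon (chromosome 7, 104409025 to 104465193, minus strand), was the widest member in Nox4 KO for a pattern of its own. Its counts were 242, 201 and 785 in WT control and 620, 81 and 91 in WT with TGF-β2, but 214, 57 and 19 in Nox4 KO control and 130, 30 and 9 in Nox4 KO with TGF-β2. Nox4 KO replicates 2 and 3 were low in both conditions, and replicate 1 was not. The nearby Trim30d and Trim12a had 0 counts in Nox4 KO replicates 2 and 3 in both conditions, which allows up to 3 counts each. In Nox4 KO replicate 1 Trim30d had 167 counts in control and 61 after TGF-β2, and Trim12a had 381 and 719. In the 6 WT libraries Trim30d ran from 17 to 455 counts and Trim12a from 262 to 795.

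Further genes of the cluster differed in their direction. Trim5 had 31 and 44 counts in Nox4 KO replicate 1 and 1 to 3 in replicates 2 and 3, and Trim34a had 78 and 63 against 12 to 20. Trim12c, which lies between Trim12a and Trim30a, kept 370 to 554 counts in all 6 Nox4 KO libraries. Trim34b was higher in Nox4 KO replicates 2 and 3, at 24 to 33 counts, than in replicate 1, at 5 and 1. Trim6 was likewise higher there, at 59 to 99 counts, than in replicate 1, at 37 and 50. The cluster lies about 17 Mb from Nox4 on the same chromosome. The cluster holds near-identical genes and reads with more than 1 location had been discarded. Neither the sequence nor the copy number of the cluster was measured, and the cause was not tested.

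**Figure D5:**
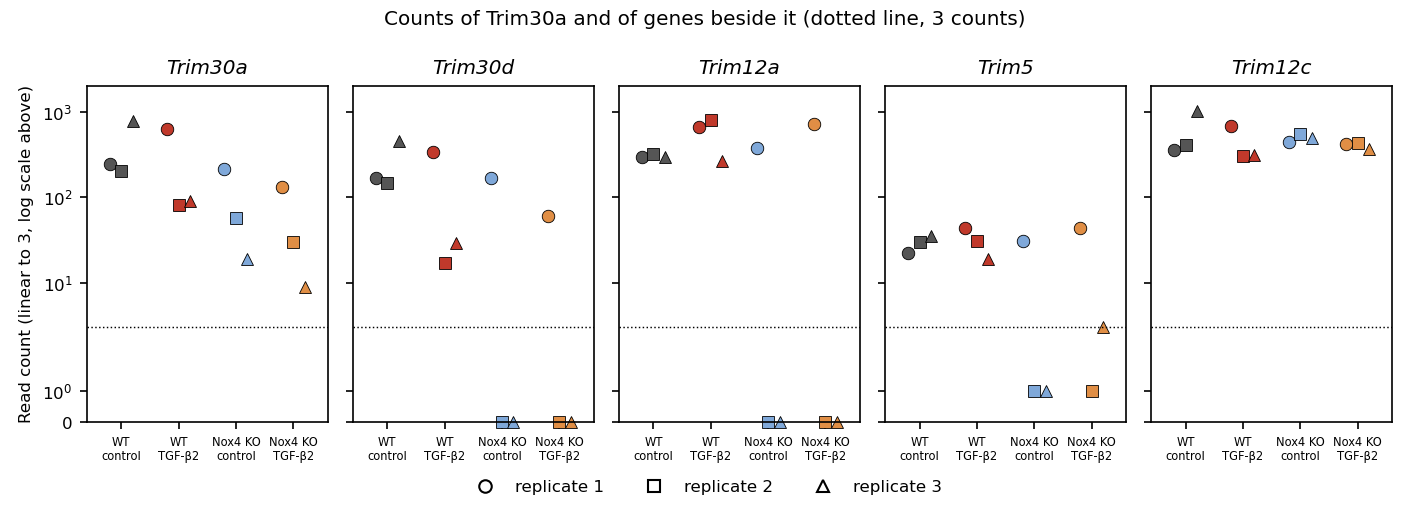
Points give the read count of Trim30a and of 4 genes beside it in each library, on an axis that is linear up to 3 counts (dotted line) and logarithmic above, with the shape marking the replicate number. Nox4 KO replicates 2 and 3 lie at 0 counts for Trim30d and Trim12a and between 1 and 3 counts for Trim5, while Trim12c shows no such gap.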

How the data were processed

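Libraries had been prepared from total RNA with the TruSeq RNA kit and sequenced as single-end reads on a HiSeq. According to the methods and the submitters' processing notes, the authors used CASAVA 1.8.2, STAR 2.4 (GRCm38, reads with more than 1 location discarded) and featureCounts 1.4.6, and deposited raw read counts per gene for 12 libraries. The strand setting of the counting is not given in the sources used here, so overlapping genes, and the near-identical Trim30, Ifit, Oas, Slfn and Gbp genes, are uncertain. RPKM was computed from the deposited counts with merged exon lengths of the GENCODE annotation (protein-coding transcripts for 21099 genes, all transcripts for 457). Totals of 35118344 to 43796260 counts limit the precision, and limits for 0 counts (3 counts) cover counting error only.

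Genes with a mean of at least 1 RPKM in at least 1 group compared were tested with edgeR 4.0.16 (TMM, quasi-likelihood test, R 4.3.3) on the libraries of each comparison, with Benjamini-Hochberg adjustment over all genes tested and a threshold of 0.05. The SE is the log2 fold change divided by the square root of F. The spread used log2 CPM with a prior count of 0.5. The scripts were tested on simulated data. Alternatives were DESeq2 1.42.0, other scalings and filters, 1 fit over 12 libraries, a replicate block, leaving out each library, and, chosen after seeing the data, leaving out both high WT libraries. Same-numbered libraries pair in Nox4 KO (every correlation of deviations over 0.1, lowest 0.688). In WT replicates 2 and 3 did so (0.415 and 0.525) but replicate 1 did not (0.0619). Full statistics are given for members that passed, for the 5 with the smallest p in each comparison and for the 5 with the widest spread, with up to 6 genes named of each other list. The members, lists and printed promoters were chosen with earlier results of these data known. Other genes were left out because they are not part of the list.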

Additional observations from a re-analysis of the deposited data

How the results depend on the processing

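Of the values of named members under the alternatives, 345 kept their direction and side of the threshold, 7 passed and 13 no longer passed, and 6 changed sign. In WT the number that fell was 2 (12.2% of all genes), 5 with DESeq2 (16%), 5 with all 12 libraries in 1 fit (15.1%), 4 without both high libraries (2.39%), and 2 to 2 when each library was left out. In Nox4 KO it was 6 (14.9% of all genes), 12 with the replicate block (28.8%), 2 with all 12 libraries in 1 fit (12.6%), 5 to 8 when each library was left out, 9 with DESeq2 (18.6%), and 8 with other scalings or the filterByExpr filter (13.6% to 19.6%). The median spread of 0.975 was 0.351 without both high libraries and 0.738 to 1.04 when each library was left out. In WT, where the numbers paired replicates 2 and 3 but not replicate 1, the replicate block gave 3 members, Slfn5 being added (adjusted p = 0.0245), and 16.4% of all genes. The sign changed for Isg15 in Nox4 KO against WT after TGF-β2 (0.779 without WT TGF-β2 replicate 1 and also without both libraries, range −3.49 to 0.779 when each library was left out). Without WT control replicate 3 it changed for the interaction of Herc6 (range −0.024 to 0.742 when each library was left out), Ifit1 (−1.09 to 3.37) and Gbp2 (−0.088 to 0.629). For Eif2ak2 the value went to 0 after rounding (0 to 1.10), which is counted among the 6. Counts of members in the comparisons of genotype and the interaction were 0 under every alternative run. The causes of these changes were not tested, beyond the smaller number of libraries. Low members, those that the RPKM filter removed from a comparison, have no test there.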
